A study of Mus musculus with 10 samples.

Results

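Glycolysis and glycogen metabolism were followed through 34 genes in mouse muscle and in cultured muscle cells on single-colour microarrays. The genes were found through the RefSeq accessions of the array's gene probes. All 34 were on the array, which carried 19752 named genes in all, and 5 of them are muscle isoforms of enzymes for which 7 other isoforms are also among the 34. The study used hSA::Fv2E-PERK mice, in which the human skeletal actin promoter drives a fusion of the stress kinase PERK in muscle, and C2C12 cells that carry the same fusion. The compound AP20187 brings the fused kinase molecules together. Active PERK phosphorylates eIF2alpha and starts the integrated stress response, and the series title asks for the targets of that response in muscle.

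The 10 arrays fall into 5 groups of 2. Male C57BL/6J mice gave 3 groups of muscle: transgenic mice 12 h after an injection of AP20187 at 1 ng/g, transgenic mice 12 h after vehicle, and wild type mice with no treatment. C2C12 Fv2E-PERK cells gave the other 2 groups, with 100 nM AP20187 or vehicle for 12 h after 3 days in 2% horse serum. Both transgenic groups carry the fusion, so that vehicle muscle is not a model of normal muscle, and the wild type mice were not injected, so that genotype and injection go together. C2C12 is 1 mouse myoblast line. The labels name neither the muscle nor the age of the mice, and they do not say that the arrays of a group came from separate animals or cultures. The p-values below therefore measure only the spread between these arrays, which may be technical.

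Glycolysis splits glucose into pyruvate and yields ATP without oxygen, and lactate dehydrogenase turns the pyruvate into lactate. Skeletal muscle, fast fibres most of all, stores glucose as glycogen and breaks it down when it contracts. For several steps muscle uses its own enzyme isoform in place of the one that most other cells use, and inherited loss of the muscle isoforms of phosphorylase, phosphofructokinase or phosphoglycerate mutase causes glycogen storage disease of muscle.

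Levels are given as relative intensity, which is the spot intensity as a multiple of the 75th percentile of its array. Levels of different genes come from different probes and were not set against each other. A change was called at an adjusted p under 0.05 in limma, with p-values adjusted over all genes tested. Between 41.0% and 53.1% of gene spots on an array were well above background, and the muscle markers Acta1, Ckm and Des were well above background in all 5 groups. Transgenic muscle was scanned in 1 session, wild type muscle in another with another slide, and the cells in a session of their own. Genotype, injection, slide and scan therefore cannot be told apart, nor can tissue and scan between muscle and C2C12. By the array headers, AP20187 and vehicle cells lay in different rows of a slide, so that row and compound cannot be told apart there. Those headers give the cells the same slide as transgenic muscle, with shared positions, so that the slide of the cells is uncertain. In bulk samples, fewer cells of a type and less RNA per cell cannot be told apart.

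Wild type muscle and C2C12 vehicle cells differed in which isoforms they expressed. All 5 muscle isoforms were higher in wild type muscle, and 6 of the 7 other isoforms were lower. Of the 34 genes, 25 were higher and 8 lower, in a comparison in which 78.8% of all 14292 genes tested were called (37.6% higher and 41.2% lower). The median log2 change was 2.64 for the 34 genes and -0.07 for all genes.

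Phosphoglycerate mutase gives the clearest pair. Pgam2, the muscle isoform, read 1075 and 965 in wild type muscle, against 8.02 and 10.3 in C2C12 vehicle cells (112-fold higher, log2 change 6.81, SE 0.13). Pgam1, the isoform of most other tissues, read 12.2 and 11.7 in wild type muscle, against 125 and 126 in C2C12 vehicle cells (10.5-fold lower, log2 change -3.39, SE 0.10). The 2 groups were far apart for each gene, in opposite directions. This fit used all 10 arrays less those with an outlier flag, which were both C2C12 AP20187 arrays of Pgam1 and 1 of Eno3. Eno3, the muscle enolase, read 1400 and 1254 in wild type muscle and 204 and 217 in the cells (log2 change 2.65). Eno1, the widely expressed enolase, read 65.1 and 55.4 in wild type muscle and 244 and 314 in the cells (-2.20), and Eno2, the neuronal enolase, read 0.179 and 0.164 in wild type muscle and 4.01 and 4.78 in the cells (-4.68). Thus the muscle enolase was higher in tissue and both other enolases were higher in the cells. Probes for Gapdh, Eno1 and Pgam1 may also bind transcripts of near-identical copies of these genes, so that their levels are uncertain.

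The isoforms of phosphofructokinase, which commits sugar to glycolysis, followed the same division. Pfkm, the muscle isoform, read 976 and 853 in wild type muscle, against 21.9 and 24.6 in C2C12 vehicle cells (39.3-fold higher). Pfkl, the liver isoform, read 1.27 and 1.11 in wild type muscle, against 7.40 and 9.14 in the cells (6.92-fold lower). Pfkp, the platelet isoform, read 0.705 and 0.542 in wild type muscle, against 1.04 and 1.09 in the cells (1.73-fold lower, log2 change -0.79, SE 0.18). The other Pfkp probe had a log2 change of -1.92. The platelet isoform thus had the smallest change of the 3.

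Pygm, the muscle glycogen phosphorylase, read 830 and 738 in wild type muscle, against 4.99 and 6.00 in C2C12 vehicle cells (143-fold higher). Pygb, the brain isoform, read 0.752 and 0.668 in wild type muscle, against 1.58 and 1.85 in the cells (2.41-fold lower). Phkg1, the muscle catalytic subunit of phosphorylase kinase, read 60.8 and 54.4 in wild type muscle, against 0.161 and 0.123 in the cells, where 1 of the 2 vehicle arrays was well above background (log2 change 8.68, SE 0.16). Phkg2, the catalytic subunit of liver and testis, was the exception among the other isoforms: it read 4.26 and 3.72 in wild type muscle and 4.32 and 5.02 in the cells (-0.23, SE 0.12, adjusted p 0.116).

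**Figure D1:**
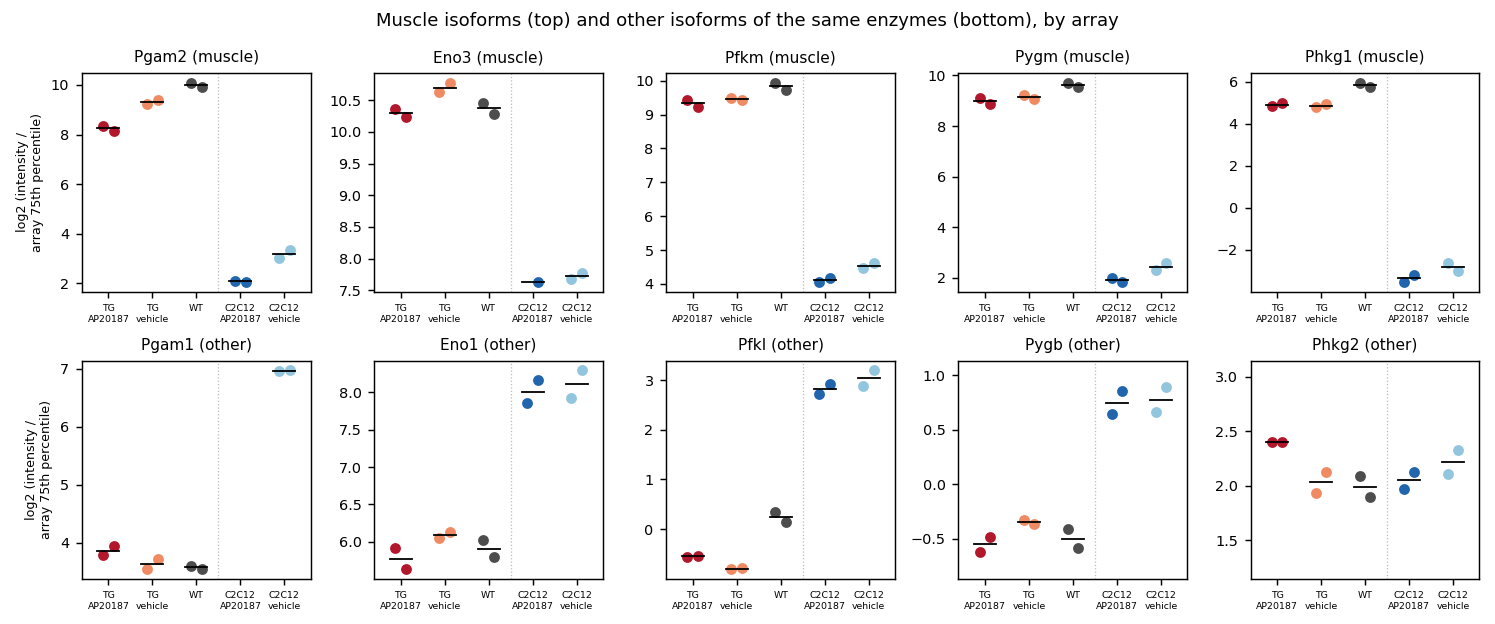
Level of 5 muscle isoforms (top row) and of another isoform of each enzyme (bottom row) on every array, as log2 of the intensity over the array's 75th percentile. Points are arrays, lines are group means, TG is transgenic muscle, WT is wild type muscle, and each panel has its own axis. Muscle isoforms are high in the 3 muscle groups, and Pgam1, Eno1, Pfkl and Pygb are high in C2C12. Pgam1 has no value in C2C12 AP20187 cells, where its spots had an outlier flag.

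Among the remaining genes, glucose transport showed the same exchange. Slc2a4, the insulin-responsive glucose transporter of muscle and fat, read 257 and 241 in wild type muscle, against 0.334 and 0.279 in C2C12 vehicle cells, the largest rise of the 34 genes in this fit (log2 change 9.67, SE 0.11, with 8.52 to 9.80 over the alternatives). Slc2a1, the transporter that serves basal glucose uptake, read 3.42 and 3.05 in wild type muscle, against 19.8 and 18.1 in the cells (5.86-fold lower). Hk1, the widely expressed hexokinase, was 6.70-fold lower in wild type muscle, and Hk2, the insulin-regulated hexokinase of muscle, was 6.84-fold higher.

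Phka1, the muscle regulatory subunit of phosphorylase kinase, read 124 and 130 in wild type muscle, against 1.67 and 1.70 in C2C12 vehicle cells (75.3-fold higher). Pfkfb1, an enzyme that makes and removes the fructose bisphosphate which activates phosphofructokinase, read 21.0 and 22.4 in wild type muscle, against 0.423 and 0.419 in the cells (51.5-fold higher). Fbp2, the muscle fructose bisphosphatase, which runs against phosphofructokinase, read 5.08 and 7.2 in wild type muscle and was not well above background in the cells, which makes it at least 41.4-fold higher in muscle. Such a bound sets the bright group's mean against the lowest signal well above background on the dim arrays. The other 15 genes called in this comparison were all higher in wild type muscle. Their log2 changes ran from 1.48 for Gapdh to 4.92 for Ldhb, the lactate dehydrogenase subunit of heart and oxidative muscle. The 7 probes of Gapdh gave 1.48 to 3.17, and the lowest was the one used.

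**Figure D2:**
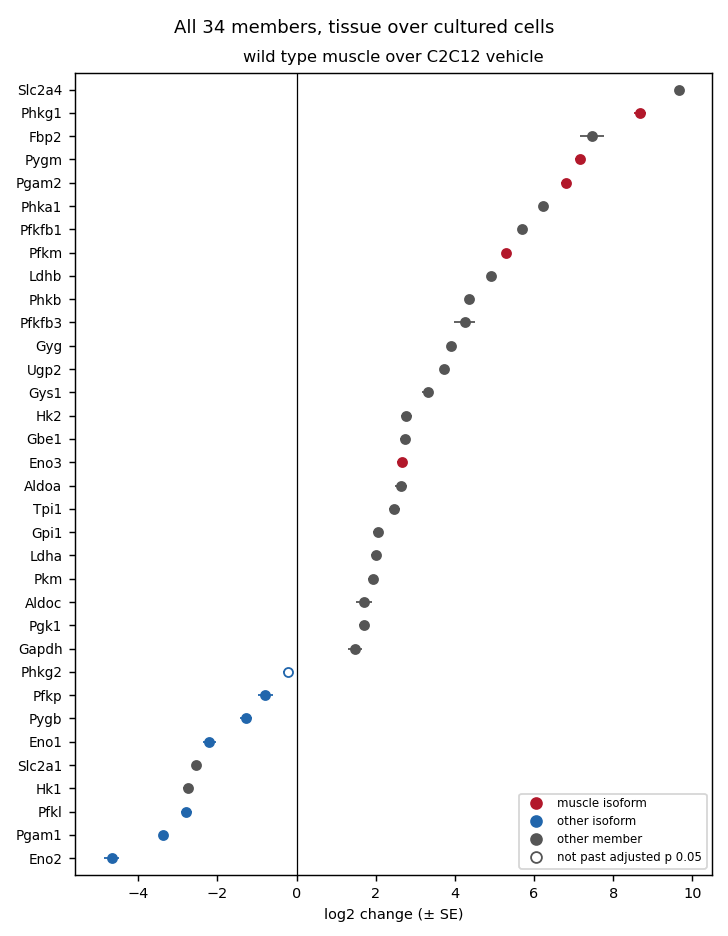
Log2 change of all 34 genes in wild type muscle over C2C12 vehicle cells, sorted, with bars of 1 SE. The 5 muscle isoforms (red) lie between 2.65 and 8.68, and the 7 other isoforms (blue) between -4.68 and -0.23. Open points did not pass the test. Fbp2 was not well above background in the cells, so that its point is a fitted value and not a measured change. Phkg1 was well above background on 1 of the 2 vehicle arrays of the cells.

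The sequences before the genes of the mutase pair, of 2 more muscle isoforms and of Fbp2 and Gbe1 are shown as examples. They are RefSeq promoter windows on GRCm38.p6, from 250 bases before to 50 bases after the start, and the windows were searched on both strands. Capitals mark CAGCTG, an E box that myogenic factors such as MyoD bind, and the motif of the muscle factor MEF2; the 2 motifs do not overlap in them. The windows are chr11:5803747-5804046 on the minus strand for Pgam2, chr19:41911621-41911920 on the plus strand for Pgam1, chr11:70656926-70657225 on the plus strand for Eno3, chr19:6384158-6384457 on the plus strand for Pygm, chr13:62858351-62858650 on the minus strand for Fbp2 and chr16:70313699-70313998 on the plus strand for Gbe1.
Pgam2: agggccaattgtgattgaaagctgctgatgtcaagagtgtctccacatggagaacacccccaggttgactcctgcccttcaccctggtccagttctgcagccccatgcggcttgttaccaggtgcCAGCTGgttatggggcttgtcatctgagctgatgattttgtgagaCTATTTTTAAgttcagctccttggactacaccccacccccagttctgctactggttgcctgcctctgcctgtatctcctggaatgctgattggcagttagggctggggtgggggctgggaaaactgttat
Pgam1: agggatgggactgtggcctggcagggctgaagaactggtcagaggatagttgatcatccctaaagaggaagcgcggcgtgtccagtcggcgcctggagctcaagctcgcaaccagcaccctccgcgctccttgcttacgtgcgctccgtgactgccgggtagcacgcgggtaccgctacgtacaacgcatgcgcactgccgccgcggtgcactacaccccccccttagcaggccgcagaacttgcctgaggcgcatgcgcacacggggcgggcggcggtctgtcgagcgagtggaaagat
Eno3: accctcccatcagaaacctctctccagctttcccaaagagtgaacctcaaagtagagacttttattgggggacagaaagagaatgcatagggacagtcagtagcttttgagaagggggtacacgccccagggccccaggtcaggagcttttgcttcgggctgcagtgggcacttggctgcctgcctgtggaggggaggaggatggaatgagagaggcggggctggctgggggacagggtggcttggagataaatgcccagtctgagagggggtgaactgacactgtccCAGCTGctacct
Pygm: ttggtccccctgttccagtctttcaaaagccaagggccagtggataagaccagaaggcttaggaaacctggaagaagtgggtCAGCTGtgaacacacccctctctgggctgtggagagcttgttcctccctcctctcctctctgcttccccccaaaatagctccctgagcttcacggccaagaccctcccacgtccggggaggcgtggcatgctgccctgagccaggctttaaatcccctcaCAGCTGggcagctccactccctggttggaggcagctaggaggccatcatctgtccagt
Fbp2: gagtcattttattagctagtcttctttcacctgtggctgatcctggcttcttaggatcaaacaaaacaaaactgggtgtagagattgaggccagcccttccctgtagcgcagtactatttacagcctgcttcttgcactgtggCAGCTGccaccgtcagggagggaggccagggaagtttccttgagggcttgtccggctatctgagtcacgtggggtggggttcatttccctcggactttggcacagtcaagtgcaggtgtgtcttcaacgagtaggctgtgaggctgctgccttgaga
Gbe1: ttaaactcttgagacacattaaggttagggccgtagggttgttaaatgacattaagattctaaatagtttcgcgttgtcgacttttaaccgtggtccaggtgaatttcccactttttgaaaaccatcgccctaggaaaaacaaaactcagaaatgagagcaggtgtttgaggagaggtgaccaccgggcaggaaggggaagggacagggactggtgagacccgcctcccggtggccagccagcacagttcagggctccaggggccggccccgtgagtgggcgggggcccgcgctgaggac

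The Pgam2 window held both motifs, CAGCTG at 125 to 120 bases and the MEF2 motif at 80 to 71 bases before the start. Eno3 had CAGCTG at 39 to 44 bases after its start, Pygm had it at 168 to 163 and at 8 to 3 bases before the start, and Fbp2 had it once before the start. Neither motif was found in the windows of Pgam1 and Gbe1. Of the 5 muscle isoforms, 3 had a window with CAGCTG, and of the 7 other isoforms 0 had one. Those 3 are the muscle isoforms shown here. Pfkm and Phkg1, which are not shown, had neither CAGCTG nor the MEF2 motif. Over all 34 genes, 33 had a window (Slc2a4 did not). CAGCTG lay in 12 of their 49 windows (24.5%), against 16.3% of all 32851 windows, and the MEF2 motif in 2 of them (4.08%), those of Pgam2 and Pfkfb1, against 3.19%. The letters TGATGNAA, the core of an element bound by ATF4, a transcription factor of the integrated stress response, were in 1 of the 49 windows (2.04%), that of Phkg1, against 3.97% of all windows.

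Transgenic vehicle muscle differed from untreated wild type muscle in 16 of the 34 genes. Gbe1, Ldhb, Gyg, Pfkp and Eno3 were higher, and Pfkfb3, Pfkl, Phkg1, Fbp2, Pgam2, Phkb, Pkm, Hk2, Pygm, Pfkm and Slc2a1 were lower. Over all genes tested, 38.3% were called (25.7% higher and 12.6% lower), the background against which the 16 are to be read. Of all called genes, 67.1% were higher, and this share was 51.4% after quantile normalization and 47.0% with the percentile taken over detected probes. The median log2 change of the 34 genes was -0.05, against 0.09 for all genes, and it was -0.24 after quantile normalization. In the fit without transgenic vehicle array 2, 10 of the 34 genes were called. Over all genes 5184 were called, 3342 without that array, 3149 without wild type array 1 and 3396 without wild type array 2.

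AP20187 in transgenic muscle changed 12 of the 34 genes. Slc2a1, Hk2 and Phkg2 rose, and Fbp2, Pgam2, Pfkfb1, Aldoc, Eno3, Phkb, Tpi1, Pgk1 and Ldhb fell. The share called over all genes was 29.3% (14.3% higher and 15.0% lower), and the 12 are to be read against it. The median log2 change of all 34 genes was -0.16, against -0.11 for all genes, and it turned to 0.02 after quantile normalization. Only 4 genes, Slc2a1, Fbp2, Pgam2 and Pfkfb1, were called under each of the 16 alternatives. Over all genes 3964 were called, 1869 without vehicle array 2, 2329 without AP20187 array 1 and 2583 without AP20187 array 2. The count among the 34 genes was 5 without vehicle array 2, 4 without AP20187 array 1 and 5 without AP20187 array 2. Vehicle array 2 is the transgenic array that lay in another slide row, so that the fit without it is also the value within a row. With the row as a block, 5 genes were called.

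Transgenic AP20187 muscle against wild type muscle shares its arrays with both comparisons above. In it 7 genes were higher and 14 lower, where 52.2% of all genes were called (29.6% higher and 22.6% lower). Of all called genes 56.6% were higher, against 46.2% with the percentile over detected probes. The median log2 change of the 34 genes was -0.21, against 0.04 for all genes.

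**Figure D3:**
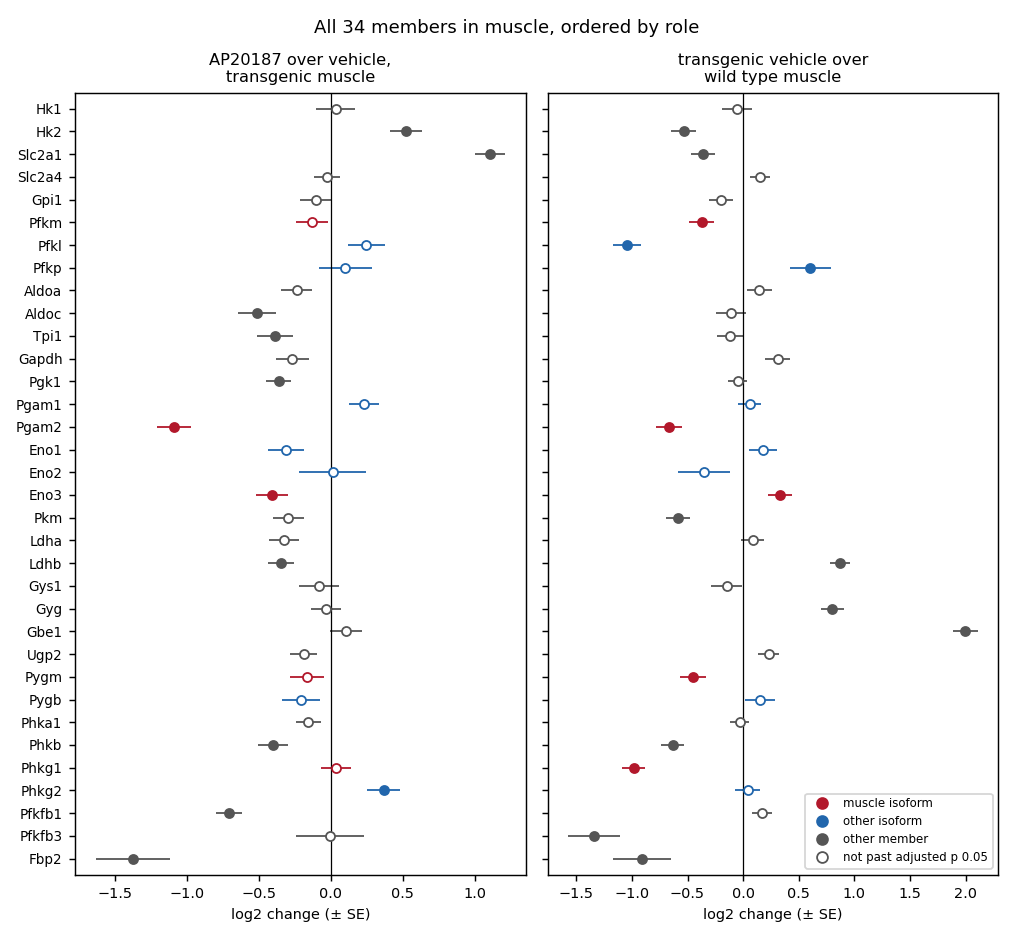
Log2 change with bars of 1 SE for all 34 genes, ordered by role from glucose entry (top) to fructose bisphosphate control (bottom). Left, AP20187 over vehicle in transgenic muscle; right, transgenic vehicle over wild type muscle. Filled points passed the test. Slc2a1 (1.11) and Fbp2 (-1.37) are at the ends on the left, Gbe1 (2.00) and Pfkfb3 (-1.34) on the right.

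At glucose entry, Slc2a1 and Hk2 rose with AP20187, and Slc2a4 and Hk1 did not pass the test. Slc2a1 read 5.33 and 5.50 in transgenic AP20187 muscle, 2.57 and 2.46 in transgenic vehicle muscle and 3.42 and 3.05 in wild type muscle. The AP20187 arrays lay above all other muscle arrays and the vehicle arrays below all others. Slc2a1 was 2.15-fold higher with AP20187 than with vehicle (log2 change 1.11, SE 0.10, adjusted p 0.000731), 1.28-fold lower in vehicle muscle than in wild type (-0.36, adjusted p 0.0279, called in 9 of 16 alternatives), and 1.68-fold higher in AP20187 muscle than in wild type (0.74, adjusted p 0.000826). Slc2a4 read 272 and 269 in AP20187 muscle, 269 and 282 in vehicle muscle and 257 and 241 in wild type muscle, with a log2 change of -0.02 (SE 0.09, adjusted p 0.855) with AP20187.

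Hk2 read 24.1 and 22.9 in transgenic AP20187 muscle, 18.0 and 14.8 in transgenic vehicle muscle and 24.1 and 23.4 in wild type muscle. Only the vehicle arrays stood apart, below the rest. It rose 1.44-fold with AP20187 (log2 change 0.52, SE 0.11, adjusted p 0.0132, called in 13 of 16 alternatives) and was 1.45-fold lower in vehicle muscle than in wild type (-0.54, adjusted p 0.00782). AP20187 muscle and wild type muscle overlapped for Hk2, with a log2 change of -0.01 (adjusted p 0.920). Hk1 had a log2 change of 0.03 with AP20187 and -0.06 in vehicle muscle over wild type, neither past the test, and its 2 probes differed in sign with AP20187.

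In upper glycolysis, Pfkl and Pfkm were lower and Pfkp was higher in transgenic vehicle muscle than in wild type. Pfkl read 0.681 and 0.686 in AP20187 muscle, 0.575 and 0.579 in vehicle muscle and 1.27 and 1.11 in wild type muscle, so that both transgenic groups lay below wild type. It was 2.06-fold lower in vehicle muscle than in wild type (log2 change -1.04, SE 0.13, adjusted p 0.000931). Pfkm read 686 and 605 in AP20187 muscle, 716 and 693 in vehicle muscle and 976 and 853 in wild type muscle (1.30-fold lower in vehicle muscle, adjusted p 0.0314, called in 8 of 16 alternatives). Pfkp read 1.16 and 0.876 in AP20187 muscle, 0.940 and 0.942 in vehicle muscle and 0.705 and 0.542 in wild type muscle, the opposite direction (1.52-fold higher in vehicle muscle, adjusted p 0.0333, also called in 8 of 16). With AP20187 over vehicle the 3 isoforms had log2 changes of 0.25, -0.13 and 0.10, none past the test.

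The aldolases cleave the fructose bisphosphate that phosphofructokinase makes. Aldoa, the muscle aldolase, read 2809 and 2615 in AP20187 muscle, 3142 and 3251 in vehicle muscle and 3087 and 2704 in wild type muscle, and passed no test among muscle groups. Aldoc, the brain aldolase, read 0.674 and 0.661 in AP20187 muscle, 0.915 and 0.990 in vehicle muscle and 1.11 and 0.946 in wild type muscle. The AP20187 arrays were the lowest (1.43-fold lower than vehicle, adjusted p 0.0256, called in 9 of 16 alternatives). Tpi1, triose phosphate isomerase, fell by a log2 change of 0.39 with AP20187 at an adjusted p of 0.0499, and was called in 3 of 16 alternatives. Gpi1, glucose phosphate isomerase, was called, among muscle groups, only in AP20187 muscle over wild type (-0.30, adjusted p 0.0457, called in 9 of 16 alternatives).

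In lower glycolysis Pgam2 differed among all 3 muscle groups. It read 327 and 280 in AP20187 muscle, 609 and 679 in vehicle muscle and 1075 and 965 in wild type muscle. The 3 groups did not overlap. Pgam2 was 2.12-fold lower with AP20187 than with vehicle (log2 change -1.09, SE 0.12, adjusted p 0.00112), 1.58-fold lower in vehicle muscle than in wild type (-0.66, SE 0.12, adjusted p 0.00398) and 3.36-fold lower in AP20187 muscle than in wild type (-1.75). Pgam1 read 13.9 and 15.4 in AP20187 muscle, 11.8 and 13.3 in vehicle muscle and 12.2 and 11.7 in wild type muscle. Its log2 change with AP20187 was 0.23 (SE 0.10, adjusted p 0.132), and it was 1.22-fold higher in AP20187 muscle than in wild type (adjusted p 0.0474, called in 6 of 16 alternatives).

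Eno3 fell with AP20187, as Pgam2 did, and was higher in vehicle muscle than in wild type. It read 1310 and 1197 in AP20187 muscle, 1589 and 1740 in vehicle muscle and 1400 and 1254 in wild type muscle, so that vehicle muscle was highest. The log2 change was -0.41 with AP20187 (adjusted p 0.0281) and 0.33 in vehicle muscle over wild type (adjusted p 0.0472). The call with AP20187 was lost in 8 of 16 alternatives, where the log2 change was as small as -0.08. The call over wild type was lost in 14 of 16. Eno1 read 60.2 and 49.8 in AP20187 muscle, 66.1 and 70.0 in vehicle muscle and 65.1 and 55.4 in wild type muscle. Eno2 read 0.126 and 0.145 in AP20187 muscle, 0.141 and 0.128 in vehicle muscle and 0.179 and 0.164 in wild type muscle. Neither of these 2 enolases passed a test among muscle groups.

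Pkm, pyruvate kinase, which makes ATP in the last step, read 282 and 238 in AP20187 muscle, 318 and 317 in vehicle muscle and 495 and 460 in wild type muscle. It was 1.5-fold lower in vehicle muscle than in wild type (log2 change -0.59, adjusted p 0.00485). Its log2 change with AP20187 was -0.29 (adjusted p 0.0766). Pgk1, phosphoglycerate kinase, fell 1.28-fold with AP20187 (adjusted p 0.0185, called in 9 of 16 alternatives). Gapdh, which oxidises triose phosphate, passed no test among muscle groups, and its 7 probes disagreed in sign in vehicle muscle over wild type, from -0.27 to 0.31.

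Ldhb read 162 and 155 in AP20187 muscle, 194 and 209 in vehicle muscle and 112 and 108 in wild type muscle. Both transgenic groups lay above wild type, and AP20187 arrays lay below vehicle arrays. The gene was 1.83-fold higher in vehicle muscle than in wild type (log2 change 0.87, SE 0.09, adjusted p 0.000489) and 1.27-fold lower with AP20187 than with vehicle (-0.34, adjusted p 0.0260, called in 6 of 16 alternatives). Ldha, the lactate dehydrogenase subunit of fast muscle, had a log2 change of -0.32 with AP20187 (adjusted p 0.0512) and of 0.09 in vehicle muscle over wild type (adjusted p 0.546).

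In glycogen synthesis, 2 of 4 genes were higher in vehicle muscle than in wild type (25.7% of all genes were) and 0 were lower. Gbe1, the branching enzyme, read 56.7 and 61.1 in AP20187 muscle, 50.4 and 59.7 in vehicle muscle and 13.1 and 14.4 in wild type muscle. All 4 transgenic arrays were far above the wild type arrays, and the transgenic groups overlapped. Gbe1 was 4.00-fold higher in vehicle muscle than in wild type (log2 change 2.00, SE 0.11, adjusted p 3.67e-05), and AP20187 over vehicle had a log2 change of 0.10 (SE 0.11, adjusted p 0.509).

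Gyg, glycogenin, the protein primer of glycogen, read 321 and 335 in AP20187 muscle, 311 and 362 in vehicle muscle and 197 and 188 in wild type muscle. It had the same pattern as Gbe1 (1.74-fold higher in vehicle muscle than in wild type, adjusted p 0.00109; log2 change with AP20187 of -0.03, adjusted p 0.828). Gys1, muscle glycogen synthase, read 64.7 and 67.6 in AP20187 muscle, 74.3 and 65.8 in vehicle muscle and 89.3 and 67.1 in wild type muscle, and Ugp2, which makes its substrate, UDP-glucose, read 82.2 to 104 over the 6 arrays. Neither gene passed a test among muscle groups, and the 2 probes of each differed in sign in vehicle muscle over wild type.

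Of the 6 genes of glycogen breakdown, 3 were lower in vehicle muscle than in wild type and 0 were higher, where 12.6% of all genes were lower and 25.7% higher. Phkg1 read 28.3 and 31.3 in AP20187 muscle, 27.7 and 30.5 in vehicle muscle and 60.8 and 54.4 in wild type muscle. The transgenic groups overlapped, both below wild type (1.98-fold lower in vehicle muscle, log2 change -0.98, SE 0.10, adjusted p 0.000541; 0.03 with AP20187, adjusted p 0.826). Phkb, the regulatory beta subunit of phosphorylase kinase, read 5.63 and 5.52 in AP20187 muscle, 7.97 and 6.81 in vehicle muscle and 11.3 and 11.5 in wild type muscle. The 3 groups did not overlap, with a 1.55-fold lower level in vehicle muscle than in wild type (adjusted p 0.00298) and a 1.32-fold lower level with AP20187 than with vehicle (adjusted p 0.0255, called in 9 of 16 alternatives).

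Pygm read 550 and 475 in AP20187 muscle, 607 and 541 in vehicle muscle and 830 and 738 in wild type muscle (1.36-fold lower in vehicle muscle, adjusted p 0.0205, called in 11 of 16 alternatives; log2 change with AP20187 of -0.17, adjusted p 0.315). Pygb read 0.650 and 0.717 in AP20187 muscle, 0.797 and 0.779 in vehicle muscle and 0.752 and 0.668 in wild type muscle, with no test passed. Phkg2 read 5.27 and 5.28 in AP20187 muscle, 3.82 and 4.38 in vehicle muscle and 4.26 and 3.72 in wild type muscle, with the AP20187 arrays above all others (1.29-fold higher than vehicle, adjusted p 0.0466, called in 5 of 16 alternatives). Phka1 read 109 to 130 over the 6 muscle arrays and passed no test among them.

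In the control of fructose bisphosphate, 2 of 3 genes were lower with AP20187 than with vehicle, where 15.0% of all genes were. In vehicle muscle over wild type 2 of 3 were lower, where 12.6% of all genes were. Fbp2 read 1.04 and 1.48 in AP20187 muscle, 3.99 and 2.60 in vehicle muscle and 5.08 and 7.2 in wild type muscle. The 3 groups did not overlap, although the arrays within each group spread widely. It was 2.59-fold lower with AP20187 than with vehicle (log2 change -1.37, SE 0.26, adjusted p 0.00821), 1.88-fold lower in vehicle muscle than in wild type (-0.91, SE 0.26, adjusted p 0.0265, called in 10 of 16 alternatives) and 4.87-fold lower in AP20187 muscle than in wild type.

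Pfkfb1 read 14.6 and 15.3 in AP20187 muscle, 24.0 and 24.8 in vehicle muscle and 21.0 and 22.4 in wild type muscle. The AP20187 arrays were the lowest (1.63-fold lower than vehicle, log2 change -0.71, SE 0.09, adjusted p 0.00195). Pfkfb3, an inducible isoform of the same enzyme, read 11.6 and 11.2 in AP20187 muscle, 10.9 and 12.0 in vehicle muscle and 21.5 and 38.9 in wild type muscle. Its wild type arrays were far from each other, and both lay above every transgenic array (2.53-fold lower in vehicle muscle than in wild type, log2 change -1.34, SE 0.23, adjusted p 0.00380). With AP20187 its brighter probe had a log2 change of -0.00 and the other one 0.65.

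**Figure D4:**
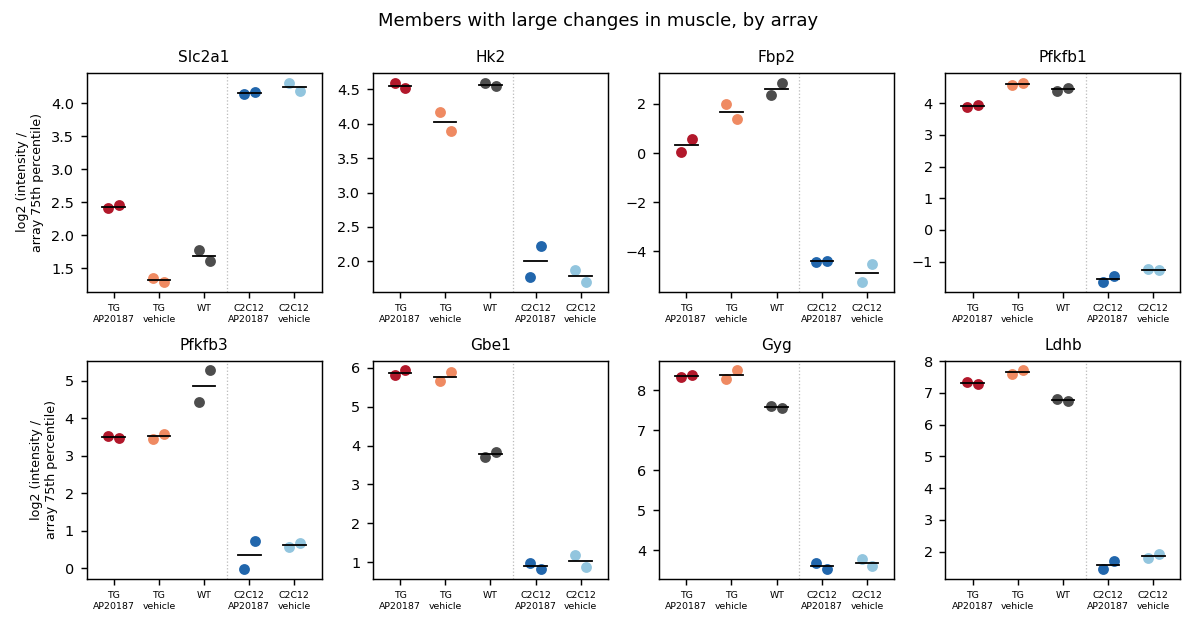
Level of 8 genes with called changes in muscle on every array, as log2 of the intensity over the array's 75th percentile. Points are arrays and lines are group means; TG is transgenic muscle, WT is wild type muscle, and each panel has its own axis. Gbe1 and Gyg are high in both transgenic groups, Slc2a1 is higher after AP20187 than in the other muscle groups, and Fbp2 is not well above background in C2C12.

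The 5 muscle isoforms were not all called in the same direction in vehicle muscle over wild type. Pgam2, Phkg1, Pygm and Pfkm were lower in vehicle muscle than in wild type and Eno3 was higher. The higher call of Eno3 was kept in only 2 of 16 alternatives. The median log2 change of the 5 was -0.45, or -0.72 after quantile normalization, against 0.09 for all genes. Of the 7 other isoforms 1 was higher and 1 lower (median 0.06, or -0.13 after quantile normalization). With AP20187, 2 of the 5 muscle isoforms fell, Pgam2 and Eno3 (median -0.17, or 0.11 after quantile normalization), and of the 7 others 1 rose, Phkg2 (median 0.10). In AP20187 muscle over wild type, 4 of the 5 muscle isoforms were lower and 0 higher (median -0.61, and -0.61 after quantile normalization). Of the 7 others, 3 were higher and 1 lower there (median -0.05), against 29.6% and 22.6% of all genes. Fibre markers moved in the same comparisons. In vehicle muscle over wild type, 6 of 9 slow fibre markers were higher and 1 lower, and 3 of 13 fast fibre markers were higher and 3 lower, against 25.7% of all genes higher and 12.6% lower. With AP20187, 3 of 13 fast fibre markers and 2 of 9 slow fibre markers fell and 0 rose, against 15.0% and 14.3% of all genes. Summed over the markers with a value on every array, fast fibre markers read 6078 to 6854 in AP20187 muscle, 8348 to 8352 in vehicle muscle and 6990 to 8018 in wild type muscle, and slow fibre markers 1115 to 1472, 1416 to 1514 and 1209 to 1224 in the same groups. Their part in these results was not tested.

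Cells other than muscle fibres also express glycolytic isoforms such as Slc2a1, Pgam1 and Pfkp. With AP20187, 8 of 9 macrophage and leucocyte markers fell (15.0% of all genes did), with sums of 20.7 to 21.2 in AP20187 muscle, 35.3 to 39.3 in vehicle muscle and 41.6 to 44.7 in wild type muscle, and only Ptprc was not well above background after AP20187. Slc4a1, 1 of 3 erythroid markers, fell as well. Sums of the erythroid markers were 164 to 184 in AP20187 muscle, 202 to 214 in vehicle muscle and 74.7 to 229 in wild type muscle. The endothelial markers held no call with AP20187. Their sums were 18.3 to 41.3 in AP20187 muscle, 45.5 to 46.9 in vehicle muscle and 40.3 to 48.7 in wild type muscle. By marker, 5 of 6 had a log2 change above 0 with AP20187 and 1 was below, at -1.54. Their median was 0.09, against -0.11 for all genes. Of the fibroblast markers 2 of 7 fell, and of the Schwann cell markers 2 of 5. In vehicle muscle over wild type, 2 of 7 adipocyte markers were higher, where 25.7% of all genes were. In the same comparison 1 of 9 macrophage, 1 of 7 fibroblast and 1 of 3 erythroid markers were lower, against 12.6% of all genes. The part of these cells in the results was not tested.

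In C2C12 cells AP20187 changed 1 of the 29 genes of glycolysis and glycogen metabolism that could be tested, and it was Pgam2, which fell. Over all 11414 genes tested, 60 (0.526%) were called (0.324% higher and 0.202% lower), and 13 without vehicle array 2, 238 without vehicle array 1, 106 without AP20187 array 1 and 202 without AP20187 array 2. The share of higher calls, 61.7%, became 97.0% after quantile normalization and 78.3% with the percentile over detected probes. Pgam2 read 4.27 and 4.20 in AP20187 cells, against 8.02 and 10.3 in vehicle cells. The groups did not overlap, and Pgam2 was 2.14-fold lower (log2 change -1.10, SE 0.14, adjusted p 0.00233). It was called in 11 of 14 alternatives, with adjusted p up to 0.176, and not without vehicle array 2, where the log2 change was -0.92.

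The next muscle isoforms in the cells did not pass the test. Pygm read 4.02 and 3.62 in AP20187 cells, against 4.99 and 6.00 in vehicle cells (log2 change -0.52, SE 0.14, adjusted p 0.120), and Pfkm read 16.7 and 17.9 in AP20187 cells, against 21.9 and 24.6 in vehicle cells (-0.42, SE 0.12, adjusted p 0.166). For both genes the AP20187 arrays lay below the vehicle arrays. Eno3 read 199 on 1 AP20187 array, since an outlier flag dropped the other, against 204 and 217 in vehicle cells. Slc2a1 read 17.7 and 18.0 in AP20187 cells, against 19.8 and 18.1 in vehicle cells (-0.08, adjusted p 0.801), without the rise that AP20187 muscle had.

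The median log2 change of the 29 genes in the cells was -0.14, against -0.06 for all genes, and it turned to 0.06 after quantile normalization. Outlier flags took both AP20187 arrays of Pgk1, Pgam1 and Pkm, and with those spots kept their log2 changes were -0.19, 0.09 and -0.37, none past the test. Fbp2 and Phkg1 were not well above background on both arrays of either group. Fast fibre markers fell in 3 of 12 tested, where 0.202% of all genes fell. Their sums were 305 to 335 in AP20187 cells and 379 to 382 in vehicle cells. Myh2 and Mybpc2 were not well above background in AP20187 cells, so that the called fall of Mybpc2 has no measured size. Adipocyte markers rose in 4 of 6, where 0.324% of all genes rose. Their sums were 7.96 to 11.3 in AP20187 cells and 0.819 to 1.07 in vehicle cells. Adipoq, Lep and Cidec were not well above background in vehicle cells. The rise of Adipoq, 1 of the 4, therefore has no measured size, and it entered the test through AP20187 cells alone. The part of these marker changes in the fall of Pgam2 was not tested.

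The AP20187 change in muscle was set against that in C2C12 in a fit of all 10 arrays, in which 31 of the 34 genes were tested. Slc2a1 differed, with a change larger by 1.19 (SE 0.14, adjusted p 0.00111) in muscle. Fbp2 passed the threshold too, but it was not well above background on any C2C12 array, so that its test is void and no difference between muscle and cells was measured for it. Over all genes, 12.0% were called (8.01% higher and 4.02% lower), and the share of higher calls, 66.6%, was 27.9% after quantile normalization. The 1695 calls over all genes became 936 without transgenic vehicle array 2, 979 without transgenic AP20187 array 1, 1107 without transgenic AP20187 array 2 and 1038 without C2C12 AP20187 array 1. Pgam2 changed by -1.09 in muscle and -1.10 in the cells, and the difference was 0.01 (SE 0.19, adjusted p 0.973).

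Lists of related genes show how far the surroundings of the pathway moved. Of 20 regulators of glycogen tested, 8 were higher and 4 lower in vehicle muscle than in wild type, where 25.7% of all genes were higher and 12.6% lower (median log2 change 0.01, against 0.09 for all genes). Stbd1, which tethers glycogen to membranes, was 3.98-fold higher, and Ppp1r3b and Ppp1r3d, which bring protein phosphatase to glycogen, were 2.85-fold and 2.25-fold higher. Stbd1 read 95.6 and 122 in vehicle muscle, against 26.0 and 28.5 in wild type muscle, so that both vehicle arrays lay above both wild type arrays.

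With AP20187, 4 of these 20 genes rose and 2 fell (median -0.24, against -0.11 for all genes), a share near the 29.3% called over all genes. Nhlrc1, the ubiquitin ligase malin, rose 1.76-fold, Ppp1r3d 1.59-fold and Gsk3b, a kinase that inhibits glycogen synthase, 1.60-fold. Pgm1, phosphoglucomutase, which links glycogen to glycolysis, fell 1.41-fold: it read 460 and 427 in AP20187 muscle, against 611 and 640 in vehicle muscle. In C2C12 cells 0 of 11 tested changed by limma at the adjusted threshold.

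Of 10 regulators of glucose entry, 2 rose with AP20187 and 0 fell, where 14.3% of all genes rose and 15.0% fell. Irs2, an adaptor of the insulin receptor, read 11.9 and 9.04 in AP20187 muscle, 3.64 and 3.08 in vehicle muscle and 9.02 and 10.4 in wild type muscle (3.10-fold higher with AP20187, 2.90-fold lower in vehicle muscle than in wild type). Tbc1d1, which restrains transporter vesicles, read 6.55 and 7.16 in AP20187 muscle, 3.09 and 3.70 in vehicle muscle and 15.3 and 9.17 in wild type muscle (2.03-fold higher and 3.51-fold lower in the same comparisons). Both genes were lowest in vehicle muscle. Tbc1d4, its relative, was 3.52-fold higher in vehicle muscle than in wild type, and Slc2a3, a glucose transporter of neurons and blood cells, 2.59-fold lower. The list thus had 2 genes higher and 3 lower in vehicle muscle, against 25.7% and 12.6% of all genes.

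Of 19 genes of pyruvate and lactate fate, 6 fell with AP20187 and 0 rose, where 15.0% of all genes fell and 14.3% rose (median -0.26, against -0.11 for all genes). Pdp1, the phosphatase that activates pyruvate dehydrogenase, fell 1.70-fold, Bsg, the partner of the lactate transporters, 1.36-fold, Mdh1, cytosolic malate dehydrogenase, 1.32-fold, and Slc16a1, a lactate transporter, 2.60-fold at a low level (0.0895 and 0.0851 in AP20187 muscle, against 0.167 and 0.308 in vehicle muscle). Bsg was called in 9, Mdh1 in 7 and Slc16a1 in 10 of 16 alternatives, and Pdp1 in all 16. In vehicle muscle over wild type, 4 of the 19 were higher and 5 lower, against 25.7% and 12.6% of all genes. Slc16a3, the lactate exporter of fast muscle, was 2.26-fold lower there, Got1, cytosolic aspartate aminotransferase, 1.71-fold higher and Pdp1 1.85-fold higher. Pdk4, the kinase that inhibits pyruvate dehydrogenase, read 11.2 and 11.1 in vehicle muscle, against 37.5 and 113 in wild type muscle, whose arrays were far apart.

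Of 9 other glycolytic isoforms, 1 rose and 3 fell with AP20187, where 14.3% of all genes rose and 15.0% fell. Bpgm, bisphosphoglycerate mutase, a relative of Pgam2 known from red cells, read 6.70 and 7.75 in AP20187 muscle, 14.3 and 14.1 in vehicle muscle and 18.4 and 19.3 in wild type muscle, the same order of groups as Pgam2 (1.98-fold lower with AP20187, adjusted p 0.000991). Adpgk, a sugar kinase that uses ADP in place of ATP, rose 1.55-fold (called in 11 of 16 alternatives), and Galm, a sugar mutarotase, and Hk3, a hexokinase of leucocytes, fell at low levels, with calls in 6 and 10 of 16 alternatives. Hk3 fell at least 1.89-fold, since it was not well above background after AP20187. In vehicle muscle over wild type, Ldhd, which oxidises D-lactate, was 1.70-fold lower and Pgam5, a mitochondrial phosphatase despite its name, 1.79-fold higher.

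Of 8 genes of fructose bisphosphate control and glucose output, 3 rose with AP20187 and 0 fell (median 0.38, against -0.11 for all genes, of which 14.3% rose and 15.0% fell). Tigar removes the fructose bisphosphate that activates phosphofructokinase. It read 26.7 and 27.7 in AP20187 muscle, against 16.9 and 17.5 in vehicle muscle (1.58-fold higher). Pck2, the mitochondrial carboxykinase, rose 2.02-fold (called in 11 of 16 alternatives) and Pfkfb2, the heart relative of Pfkfb1, 1.78-fold (called in 6 of 16). In vehicle muscle over wild type, Pck2 was at least 6.14-fold higher and G6pc, the glucose phosphatase of liver, at least 1.94-fold lower, each not well above background in the lower group, and Pcx, pyruvate carboxylase, was 1.42-fold lower and Pfkfb4, another relative of Pfkfb1, 1.52-fold higher.

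**Figure D5:**
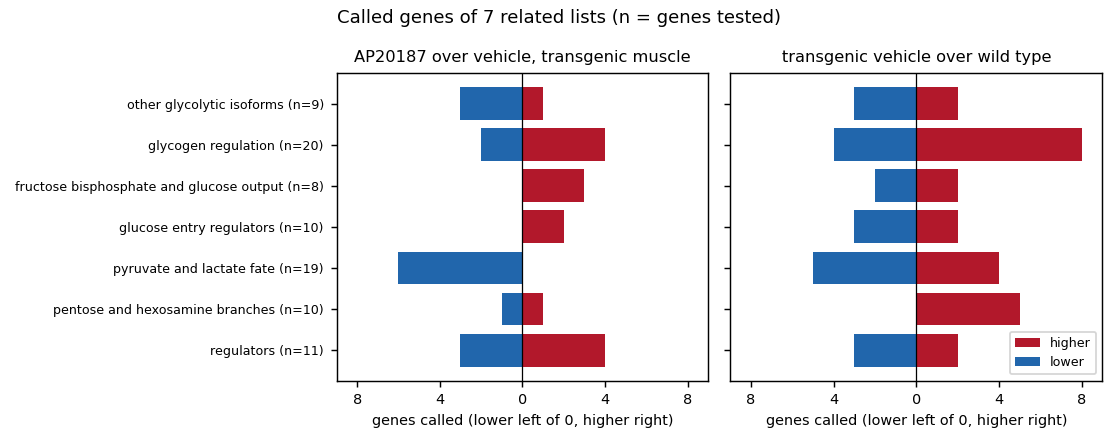
Number of genes called higher (red, right of 0) and lower (blue, left of 0) in 7 related gene lists, with n the genes tested. Left, AP20187 over vehicle in transgenic muscle; right, transgenic vehicle over wild type muscle. Glycogen regulation has 8 higher genes on the right, and pyruvate and lactate fate has 6 lower and 0 higher genes on the left.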

How the data were processed

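Total RNA (150 ng per array, Cy3) was measured on Agilent arrays. The deposited scanner files hold spot intensity from Agilent Feature Extraction 10.7.1.1, already background-subtracted, per the file headers. The deposited table of log2 values was made by the authors from the same arrays. Its differences between arrays follow the scanner values at r of 0.99985 or more, so that scale and direction are known and the centring is not. Its column medians were -0.37 and -0.57 in transgenic AP20187 muscle, -0.42 and -0.35 in transgenic vehicle muscle, -0.46 and -0.45 in wild type muscle, 0.80 and 0.77 in C2C12 AP20187 cells and 0.34 and 0.70 in C2C12 vehicle cells. It was used as an alternative only.

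Control spots and spots with an outlier flag were left out, spots of a probe were averaged, and log2 intensity minus the 75th percentile of the array was used. Flagged spots were 2.37% and 2% on the C2C12 AP20187 arrays and 0.160% to 0.376% on the others. RefSeq accessions were named through a GRCm38.p6 table, which gave a name to 26056 probes. Of the 26108 probes with an NM accession, 25521 were named. The brightest probe stood for a gene, one with a value on every array where there was one. Genes entered a test where some group of the fit had both of its arrays well above background. Changes were fitted in R 4.3.3 with limma 3.58.1 (linear models, moderated variances with a trend, Benjamini-Hochberg adjustment): 6 muscle arrays (3 residual degrees of freedom), 4 C2C12 arrays (2), and all 10 arrays (5) for muscle against C2C12 and for the difference of the AP20187 changes. The number of arrays limits the precision. The code was tested on simulated data.

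The 34 genes and all lists were chosen with earlier results of these data known. Array values are given for the isoforms and for up to 8 called genes with the largest change in each comparison; of the related lists, up to 4 called genes with the smallest p are named, and some are not reported here. Alternatives were normexp background (on median signals, in place of the mean signals first intended), quantile normalization, the percentile over detected probes, no filter on dim probes, the mean over probes, outlier spots kept, the deposited table, no variance trend, other arrays in the fit, the replicate number or slide row as a block, and each array left out.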

Additional observations from a re-analysis of the deposited data

Results flagged for a closer look

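The AP20187 change of Slc2a1 differed between transgenic muscle and C2C12 cells in a test of the difference itself (1.19 on the log2 scale, SE 0.14, adjusted p 0.00111 by limma; called in 18 of 19 alternatives, with adjusted p from 0.00106 to 0.159). Slc2a1 read 5.33 and 5.50 in AP20187 muscle, against 2.57 and 2.46 in vehicle muscle, and 17.7 and 18.0 in AP20187 cells, against 19.8 and 18.1 in vehicle cells.

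For Fbp2 the fitted difference was -1.83, but it was not well above background on any C2C12 array. The test of the difference is therefore void, and only its fall in muscle (1.04 and 1.48 with AP20187, against 3.99 and 2.60 with vehicle) is a measured change. Groups of 2 arrays are too small to look for outlying samples.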

How the results depend on the processing

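No gene among the 34 reversed a called change under any alternative. With AP20187 in muscle, 12 genes were called, and 7 after quantile normalization, 6 with no filter on dim probes, 6 in the deposited table, 7 without a variance trend, 5 with slide row as a block, and 4 to 9 with an array left out. In transgenic vehicle muscle over wild type, 16 became 10 without a variance trend or with slide row as a block, and 10 to 13 with an array left out. In AP20187 muscle over wild type, 21 became 16 to 19 with an array left out. In C2C12, 1 became 2 with normexp, 3 after quantile normalization, 0 in the deposited table and without a variance trend, and 0 to 1 with an array left out. For wild type muscle over C2C12, 33 stayed at 33 with each array left out. For the difference of the AP20187 changes, 2 became 6 with normexp, 5 after quantile normalization, 1 in the deposited table and without a variance trend, 0 with slide row as a block, and 1 to 2 with an array left out; the 2 include Fbp2, whose test is void and which was lost without transgenic vehicle array 1, AP20187 array 1, C2C12 vehicle array 1, or either C2C12 AP20187 array. The cause was not tested.

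With the replicate number as a block the counts were 14, 15, 21, 1, 33 and 2 in the same order. Same-numbered arrays did not deviate together (r from -0.08 to 0.08). With 2 arrays in a group this cannot exclude pairing, so whether the numbers pair the samples is not known. Over all genes, the replicate block moved the calls to 5593 for AP20187 in muscle (3964 without it). It moved them to 6428 for vehicle muscle over wild type (5184) and to 8105 for AP20187 muscle over wild type (7071). Over all genes in C2C12, 60 were called, 330 with normexp, 1024 after quantile normalization, 147 with no filter, 119 with the mean over probes, 21 in the deposited table, and 32 without a variance trend, 139 with all 10 arrays in the fit and 104 with the replicate block. Slide row as a block moved the calls over all genes to 1797 for AP20187 in muscle (3964 without it) and 3279 for vehicle muscle over wild type (5184). For the difference of the AP20187 changes it moved them to 40 (1695, and 3181 with normexp). In these fits the row effect came from the 2 transgenic vehicle arrays alone, the only group that spans rows. Quantile normalization moved the median of all genes by 0.22 in C2C12 and by -0.13 in the difference, and the percentile over detected probes moved it by -0.16 and -0.12 in vehicle and AP20187 muscle over wild type. Signal over background limits Fbp2, Phkg1 and Aldoc in C2C12.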

Other observations

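Of 10 genes of the pentose and hexosamine branches, which leave glycolysis, 5 were higher in vehicle muscle than in wild type and 0 were lower, where 25.7% of all genes were higher and 12.6% lower (median log2 change 0.18, or -0.01 after quantile normalization, against 0.09 for all genes). Gnpnat1, an acetyltransferase of hexosamine synthesis, read 3.75 and 4.47 in AP20187 muscle, 1.61 and 1.92 in vehicle muscle and 0.609 and 0.854 in wild type muscle, and the 3 groups did not overlap (2.33-fold higher with AP20187 over vehicle, 2.44-fold higher in vehicle muscle over wild type). Pgls, Rpe and Taldo1, of the pentose phosphate pathway, were 1.79-fold, 2.01-fold and 1.31-fold higher in vehicle muscle. G6pdx, the entry enzyme of that pathway, fell 1.5-fold with AP20187. It and Taldo1 were each called in 10 of 16 alternatives.

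Of 11 regulators of glucose metabolism, 4 rose and 3 fell with AP20187, where 14.3% of all genes rose and 15.0% fell. Myc, a transcription factor with glycolytic targets, read 12.3 and 9.82 in AP20187 muscle, 0.601 and 0.395 in vehicle muscle and 0.435 and 0.417 in wild type muscle (22.6-fold higher with AP20187 over vehicle). Hif1a and its partner Arnt, which bind DNA together in low oxygen, rose 1.45-fold and 1.33-fold (each called in 12 of 16 alternatives). Prkag3, the subunit of AMP-activated kinase found in fast muscle, read 1.81 and 1.45 in AP20187 muscle, 2.58 and 2.60 in vehicle muscle and 11.3 and 11.0 in wild type muscle. It was 4.30-fold lower in vehicle muscle than in wild type and 1.59-fold lower with AP20187 than with vehicle. Mlxipl, a glucose-responsive transcription factor, was 1.60-fold lower in vehicle muscle than in wild type.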
